A study of Mus musculus with 3 samples.

Results

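Cardiac myofibroblasts that had been kept in suspension and then returned to plastic (re-adherent) were compared with the same kind of cells collected at the end of their first culture on plastic (adherent), to ask which genes did not come back to their first adherent level. Of 20658 genes named on the array, 13686 were well above background on both arrays and make up the comparison, and 788 and 251 further genes were read on the adherent or the re-adherent array only. The cells came from hearts of male C57BL/6J mice, given as 8 weeks old in one label, whose left anterior descending artery was permanently tied at 10 weeks of age and whose hearts were collected 3 days later. Cells that attached to plastic overnight and were CD45-negative after magnetic separation were taken as myofibroblasts, and this selection and the infarct were common to all states. The non-adherent array, from the suspension step between both adherent states, is used only to show where each gene stood before re-plating. Each state had 1 array of RNA mixed from several preparations, so no difference here has a replicate check and no p-value is given. The states were collected one after another from the same culture line, most cells were lost in suspension according to the study's methods, and time in culture, passage through trypsin and survival of the suspension step cannot be told apart from the state.

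Cardiac fibroblasts hold the collagen and proteoglycan scaffold of the heart. After an infarct they become myofibroblasts, which build contractile bundles of alpha-smooth muscle actin and secrete scar matrix, and which sense the stiffness of their support through actin-regulated factors such as SRF with its MRTF partners and YAP with TEAD. Fibroblast preparations from infarcted hearts can also carry macrophages, endothelial cells, pericytes and mesothelial cells, so genes of those cells were read beside the fibroblast programmes.

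Signals are given as percent of the 75th percentile of the signals on the same array, control spots left out, with the adherent value first, the suspension value second and the re-adherent value last. Differences are log2 values of the re-adherent minus the adherent array unless stated. The 75th percentile itself was 541 intensity units on the re-adherent array and 651 on the adherent array, and 53.9% and 58.1% of the spots passed the software's test for signal well above background. The error that the scanner software gives to a difference had a median of 0.20, probes spotted 10 times gave 0.10, and probes of the same gene differed with a median SD of 0.12 over 3544 genes. These errors are technical. Of 124 genes with several probes whose brightest probe differed over 2-fold, all probes had the same sign in 116.

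The cells still carried their marker genes after re-plating. Acta2, which encodes alpha-smooth muscle actin, gave signals of 66800, 672 and 63800, and Postn, the gene of the matricellular protein periostin, 1210, 1110 and 1040. The fibroblast genes Thy1 (6210, 549 and 5290) and Tcf21 (428, 128 and 475) and the collagen genes Col1a1 (28300, 17400 and 23500) and Col1a2 (53000, 26400 and 42000, in a spot cluster) all lay within 2-fold of the adherent array. Vgll3, the TEAD cofactor the study followed, was at 102 and 98.7 on the adherent and re-adherent arrays and not well above background in suspension. Ptprc, the gene of CD45 by which leukocytes had been removed, was nevertheless read on all 3 arrays, at 54.6, 350 and 98.2.

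Most genes lay close to their first level. The differences had a median of 0.08, quartiles of -0.19 and 0.34 and an SD of 0.53 over the 13686 genes. A difference of over 2-fold was taken as the call: 459 genes (3.35%) were higher and 350 (2.56%) lower on the re-adherent array. Over 4-fold, 53 genes were higher and 53 lower, 0.387% in each direction, and over 8-fold 14 were higher (0.102%) and 9 lower (0.0658%). In either direction 5.91% of genes passed 2-fold. Counts given for gene lists are to be read beside these shares of all genes, 3.35% higher and 2.56% lower. The balance of higher to lower genes depends on scaling. Of the genes called at 2-fold, 56.7% were higher with the 75th percentile, against 27.4% with no scaling (251 higher, 665 lower), 37.1% with the authors' own scaling (306 and 518) and 11% with the E1A spike-in probes (151 and 1218), which moved the median of all genes to -0.40. List shifts smaller than this have no settled direction.

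**Figure D1:**
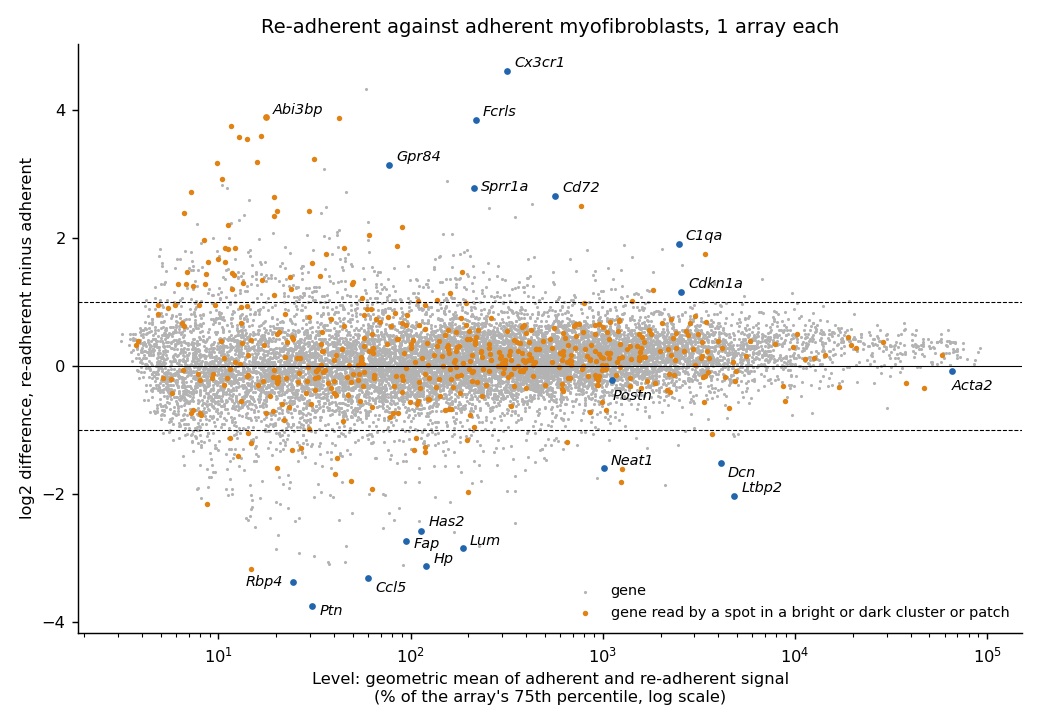
Each point is a gene well above background on both arrays, with the geometric mean of both signals (percent of the 75th percentile, log axis) against the log2 difference, re-adherent minus adherent; dashed lines mark 2-fold. Cx3cr1 at 4.62 and Ptn at -3.75 are the outermost genes outside spot clusters, Acta2 and Postn lie near 0, and orange points, read by spots in small bright or dark clusters, crowd among the dim genes at the top.

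Before single genes are named, the position of each spot was taken into account. The re-adherent array carried small groups of neighbouring spots that were all brighter than on the adherent array, each with a different probe. A spot was counted as clustered where at least 2 of its 8 nearest spots differed over 4-fold in one direction, a definition chosen after seeing the data. By it 1356 spots (2.29%) lay in bright clusters and 577 (0.973%) in dark ones. Clusters and a few larger patches held the spots of 505 of the 13686 genes (3.69%), but of 20 of the 53 genes over 4-fold higher (37.7%) and 9 of the 14 over 8-fold higher (64.3%). Among genes over 4-fold lower they held 2 of 53 (3.77%), 1 of which was the endothelial gene Cdh5. The positive differences of Abi3bp (3.89), BC037704 (3.75), 1810014B01Rik (3.6), Cacna1c (3.58), Sez6l (3.56), Slc38a3 (3.19), Zfp185 (3.18), Zfp759 (2.92) and Tmem163 (2.72) all come from such spots, and are not used below. Without clusters and patches, 403 genes were over 2-fold higher (3.06%) and 327 lower (2.48%), and 33 and 51 over 4-fold. Genes named below that lie in a cluster are marked as such.

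**Figure D2:**
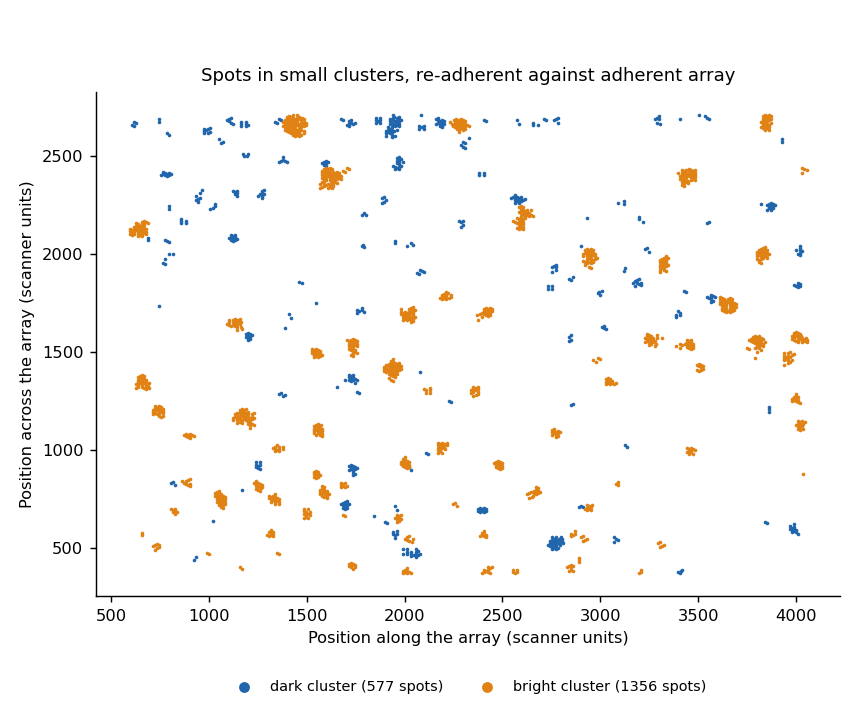
Position of the clustered spots on the array, in scanner units along and across it; orange spots belong to bright clusters (1356 spots) and blue spots to dark clusters (577 spots) of the re-adherent against the adherent array. Bright clusters form compact groups spread over the whole array.

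The contractile programme was back near its first level. Of 20 contractile genes and targets of SRF and MRTF, 0 were over 2-fold higher and 3 lower, the median difference was -0.16, and their median in suspension had been -3.43 against the same adherent array. Tagln, the actin binder transgelin, gave 56900, 902 and 65300. Myl9, the regulatory myosin light chain, gave 32800, 295 and 29500, and Cnn1, calponin, 5850, 13.2 and 3350, so that all of them were far down in suspension and high on both adherent arrays. The 3 members that stayed over 2-fold lower are genes of smooth muscle: Myh11, the smooth-muscle myosin heavy chain (32.8, 0.896 and 6.21, a difference of -2.40), Actg2, the enteric actin (2660, 4.39 and 1090, or -1.28), and Mylk, the myosin light chain kinase (22.3, 7.71 and 9.72, or -1.20, in a cluster). Myh11 was not well above background in suspension. The actin genes are alike in sequence, and how far their probes bind each other's transcripts was not tested.

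Targets of YAP and TEAD had 0 of 21 members over 2-fold different and a median of -0.20, after a median of -1.98 in suspension. Ankrd1, a stretch-responsive titin-binding protein and a standard YAP target, gave 10000, 4.94 and 10100. Ccn1 (7720, 342 and 6230) and Ccn2 (30000, 1760 and 35900), matricellular proteins that the same factors drive, likewise differed by less than 2-fold. The enzymes that process and crosslink collagen also had 0 of 17 members over 2-fold different. The crosslinking oxidases Lox (1570, 69.2 and 1530) and Loxl2 (2070, 376 and 2720) were as high after re-plating as before.

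Stretches of promoter are shown here because SRF acts through a known DNA element, the CArG box, which ties these genes to the actin state of the cell. Of the 20 contractile genes, 17 had a promoter in the RefSeq table for GRCm38.p6, which spans 250 bases before to 50 after the start site. A CArG box on either strand was held by 5 of them, against 535 of all 32851 promoters (1.63%). The list was itself chosen to hold SRF targets, and it is counted per gene and the total per promoter. These shares are therefore not comparable. The boxes are in capitals and each line is read 5′ to 3′ on the strand of the gene.
Myl9, chr2:156775295-156775320, plus strand: agcagaggCCTAATAAGGccgggctg
Acta1, chr8:123894831-123894856, minus strand: cccgacacCCAAATATGGcttgggaa
Vcl, chr14:20929163-20929188, plus strand: cactatgcCCTTATAAGGagcgcccc
Filip1l, chr16:57549172-57549197, plus strand: gccgcgcgCCTTATAAGGctgagcgg
Srf, chr17:46556227-46556252, minus strand: ggggctcgCCATATAAGGagcggcct
The boxes began 161, 73, 227, 62 and 82 bases before the start sites, in the order of the lines. All 5 genes lay within 2-fold of the adherent array, with differences between -0.38 for Filip1l and 0.03 for Srf itself (1090, 347 and 1110). The Acta1 spot lay in a cluster. A match of letters is a description of these windows and says nothing of binding.

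Matrix genes divided after re-plating, with some near their first level and some below it. Of 16 collagen genes, 0 were over 2-fold higher and 4 lower, with a median of -0.51, after a median of -0.38 in suspension. Col5a3, a chain of the fibril-regulating type V collagen, gave 257, 702 and 48.1, a difference of -2.42 or 5.34-fold. Col14a1 (754, 1180 and 307, -1.30), Col11a1 (243, 3.24 and 99.8, -1.29) and Col6a3 (424, 1190 and 190, -1.16) were the others. Of these 4, only Col11a1 was already below its first level in suspension. The main scar collagens were nearer to their first level, with Col3a1 at 12500, 14200 and 7370.

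Among 29 matrix glycoproteins and proteoglycans, 2 were over 2-fold higher and 6 lower, against 3.35% and 2.56% of all genes. The list as a whole was level, with a median of -0.07, 11 members above 0 and 18 below. Its signals added up to 205000, 152000 and 217000, so the falls named here are those of single members. Lum, lumican, a proteoglycan that organises collagen fibrils, gave 503, 5930 and 69.6, 7.23-fold below its first adherent level after having been highest in suspension. Dcn, decorin, of the same family, followed the same course at a higher signal with 6920, 22400 and 2430 (-1.51), and Ogn, osteoglycin, was at 975, 165 and 396 (-1.30). Has2, the hyaluronan synthase, went from 277 through 53.9 to 46.4 (-2.58), and Ltbp2, a fibrillin-binding protein of elastic fibres, from 9730 through 2990 to 2380 (-2.03). For Has2 and Ltbp2 the suspension and re-adherent signals were thus alike and both below the first culture. Comp, a matrix protein of cartilage and tendon, was at 43.4, 281 and 17.1. The member higher outside clusters was Eln, elastin, at 9.57, 34.7 and 29 (1.6).

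The genes with the most negative differences included further microfibril and matrix genes. Mfap2, a microfibril protein, gave 270, 1410 and 31.2, or -3.11, and its other probe -1.49, so its fold is uncertain while its sign is shared. Fbn2, the fibrillin of developing tissue, gave 111, 34.7 and 12.9 (-3.10). Crispld2, a secreted protein (601, 152 and 85.8, -2.81, with -2.97 by its other probe), and Lrrc17, a secreted leucine-rich repeat protein (72.2, 130 and 9.56, -2.92), were also among the 20 most negative differences. Mmp3, stromelysin, a protease that cuts proteoglycans, was at 1700, 6410 and 508 (-1.75), and the aggrecanase Adamts4 at 158, 142 and 64.1 (-1.30). The protease inhibitor Timp2 was over 2-fold higher, at 13400, 25200 and 27200 (1.02 and 0.99 by its probes).

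Genes that mark the cardiac fibroblast lineage divided likewise. Of 29 fibroblast identity genes, 0 were over 2-fold higher and 7 lower, with a median of -0.27. Meox1 and Meox2, paired homeobox factors of mesoderm, gave 88.0, 33.0 and 11.3 (-2.97) and 60.0, 30.6 and 11.5 (-2.38). Fap, the membrane protease of activated fibroblasts, was at 244, 926 and 36.7 (-2.73). Pi16, which marks a perivascular fibroblast pool, was at 44.2, 349 and 12.5 (-1.82), and Islr, a mesenchymal surface-associated protein, at 193, 993 and 64.0 (-1.59). Fap, Pi16, Islr, Dcn and Lum all had their highest signal in suspension and their lowest after re-plating, whereas Meox1 and Meox2 stepped down from each state to the next.

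**Figure D3:**
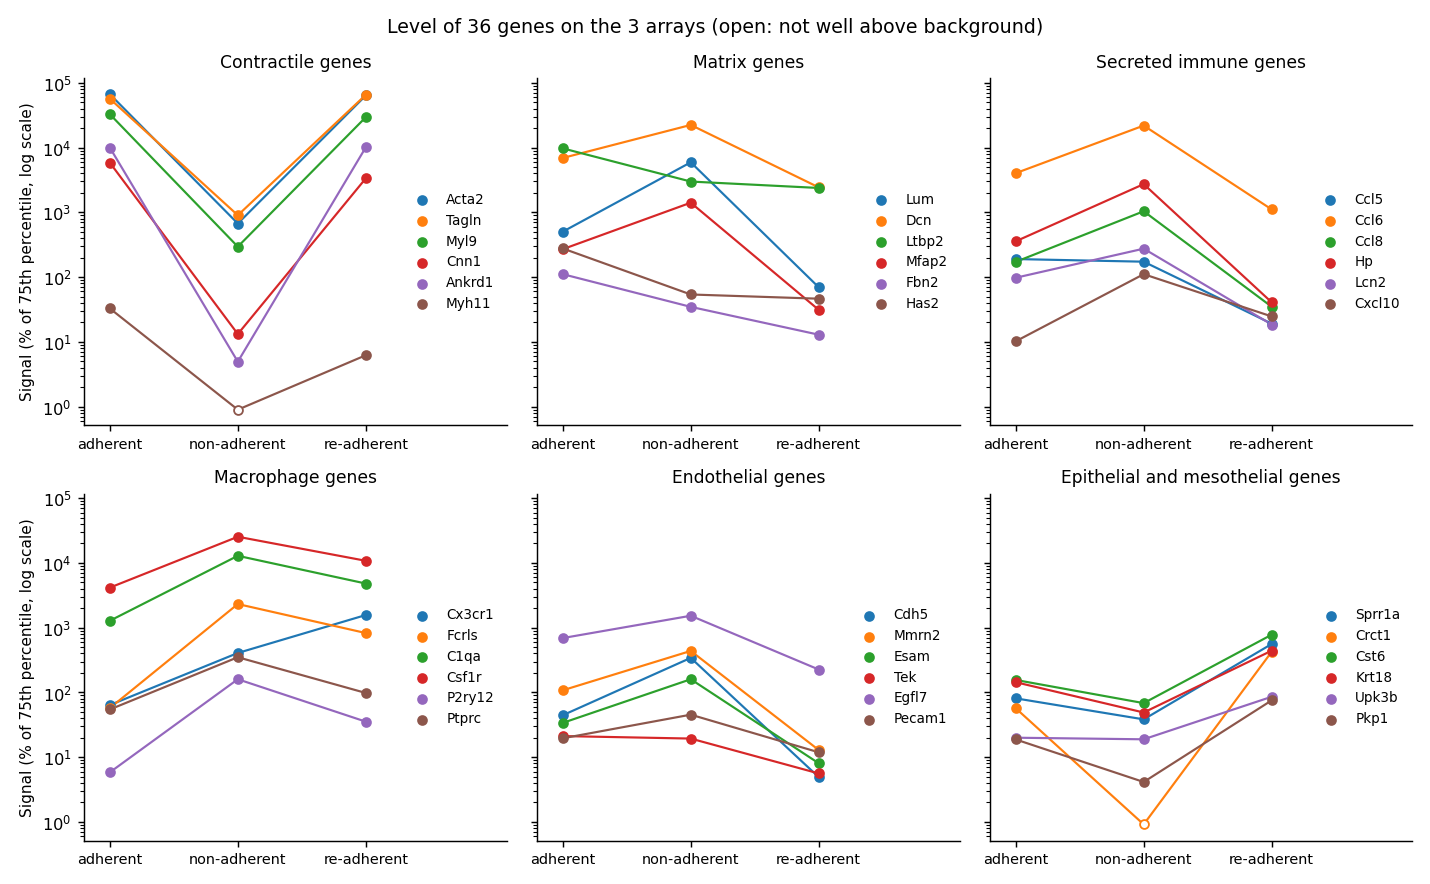
Signal of 36 genes in the first adherent culture, in suspension and after re-plating, in percent of the 75th percentile on a log axis; open symbols were not well above background. Of the genes drawn, contractile genes other than Myh11 end near their first level. The matrix, secreted immune (except Cxcl10) and endothelial genes drawn end below theirs, and the macrophage, epithelial and mesothelial genes drawn end above theirs. They are examples, and the lists in the text hold members of both directions. The endothelial genes Kdr and Ptprb, not drawn, end above their first level.

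Growth factor and signalling genes differed in both directions after re-plating. Of 29 growth factors and their binding proteins, 3 were over 2-fold higher and 7 lower. The list as a whole was level, with a median of -0.03, 14 members above 0 and 15 below. Of all genes, 3.35% were over 2-fold higher and 2.56% lower. Ptn, pleiotrophin, a heparin-binding growth factor, had the most negative difference of all genes, with 113, 105 and 8.4, a difference of -3.75 or 13.4-fold, and -3.43 by its other probe. Its only relative in the family, Mdk, midkine, gave 208, 385 and 58.9 (-1.82 and -2.59 by its probes). Hgf, the scatter factor, was at 32.2, 87.7 and 7.03 (-2.20), and the Tie2 ligands Angpt2 (189, 144 and 40.5, -2.22) and Angpt1 (23.8, 14.9 and 7.76, -1.62) and the lymphatic factor Vegfc (840, 247 and 387, -1.12) were lower too. The members over 2-fold higher were Igfbp2, an IGF carrier (333, 24.2 and 920, 1.47), Igf1 itself (596, 4460 and 1320, 1.15, with 4 probes between 1.07 and 1.25) and Pdgfb (135, 314 and 276, 1.03).

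Among 27 TGF-beta and BMP genes 1 was higher and 5 lower, with a median of -0.23. The ligand gene Tgfb3 gave 3780, 946 and 1610 (-1.23) and the co-receptor Tgfbr3 298, 233 and 136 (-1.13). Tgfbi, a matrix protein named for its induction by TGF-beta, was higher at 1030, 5920 and 2260 (1.13). Of 23 Wnt genes 2 were higher and 4 lower, with a median of -0.19. The lower genes were led by the secreted antagonist Sfrp2 at 110, 112 and 22.3 (-2.30). Its relative Sfrp1 was lower at 580, 244 and 287 (-1.02) and another, Sfrp4, higher at 7.85, 5.76 and 20.4 (1.38). Rbp4, the retinol carrier, came next after Ptn, with 78.7, 59.4 and 7.57 (-3.38 or 10.4-fold), while Aldh1a3, which makes retinoic acid, was higher at 61.7, 59.8 and 127 (1.05). For Ptn, Rbp4 and Sfrp2 the adherent and suspension signals were close, and the low signal was seen only after re-plating.

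Secreted immune genes differed in both directions. Of 21 chemokine ligands 4 were over 2-fold higher and 8 lower, with a median of -0.76 against 0.08 for all genes. Ccl5, which draws T cells and monocytes, gave 190, 173 and 19.1 (-3.31 or 9.95-fold). The monocyte-attracting Ccl8 (172, 1040 and 34.9, -2.30) and Ccl6 (4030, 21900 and 1110, -1.86) were high in suspension and below their first level after it. The neutrophil chemokines Cxcl1 (393, 519 and 100, -1.97, in a cluster) and Cxcl5 (6850, 1210 and 3290, -1.06) were also lower, as was Ccl17 (222, 3.23 and 97.1, -1.19). Ccl12 (111, 575 and 307, 1.47, in a cluster), Cxcl16 (110, 462 and 268, 1.29), the interferon-induced Cxcl10 (10.2, 111 and 24.7, 1.27) and Ccl4 (163, 1740 and 326, 1.00) stayed above their first level. Ccl2, the main monocyte chemokine, was at 3930, 7820 and 3680, within 2-fold.

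Acute-phase and complement genes also split, with 4 of 22 over 2-fold higher and 6 lower. Hp, haptoglobin, the haemoglobin scavenger, was at 357, 2730 and 40.8 (-3.13 or 8.75-fold), and Lcn2, the iron-carrier binder lipocalin, at 97.7, 275 and 18.5 (-2.40). Genes of the classical complement pathway split. The component C4b (121, 1180 and 48.3, -1.32), the protease C1s1 (61.9, 580 and 26.4, -1.23) and the inhibitor Serping1 (1620, 4770 and 725, -1.16) were lower. Clu, clusterin, was lower too (1120, 8410 and 478, -1.23). The 4 higher members were Cfd (2.65, 123 and 9.42), a dim probe, and the 3 chains of C1q. C1q belongs to the classical pathway as well, and is a macrophage product described with the macrophage genes. Cfb, complement factor B, was read at 35.9 in the first culture and was under the detection limit after re-plating, at least 10.6-fold lower.

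Of other inflammatory mediators, Il33, the nuclear alarmin, was at 31.5, 93.6 and 6.12 (-2.37), Il11, a fibrosis-linked cytokine, at 72.7, 13.5 and 22.5 (-1.69, in a cluster) and Tslp at 63.9, 9.48 and 23.3 (-1.45). Tnf was higher at 18.4, 222 and 41 (1.15), and so was Il1rn, the IL-1 receptor antagonist, at 4.16, 32.6 and 8.36 (1.01). Over all 20 cytokine genes 2 were higher and 3 lower, with a median of -0.06. Il6 lay just inside 2-fold at 1490, 49.5 and 805 (-0.89).

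Promoter windows of this group are shown because NF-kB, the common inducer of such genes, binds the kB element, and chemokine genes that hold it ended on both sides of their first level. The consensus kB element, searched on both strands, occurred in 1480 of 32851 promoters (4.51%). It was found in 4 of the 15 chemokine genes with a promoter in the table, in 2 of 14 cytokine genes and in 2 of 15 acute-phase and complement genes. Lists are counted per gene and the total per promoter, so these shares are not directly comparable. Lines are read 5′ to 3′ on the gene's strand, with the element in capitals.
Cxcl1, chr5:90891166-90891191, plus strand: tgtactccGGGAATTTCCctggcccg
Il6, chr5:30013062-30013087, plus strand: tcaaatgtGGGATTTTCCcatgagtc
Cxcl10, chr5:92349031-92349056, minus strand: aggggagaGGGAAATTCCaagttcat
The elements began 71, 44 and 159 bases before the start sites, and the genes differed by -1.97 for Cxcl1, -0.89 for Il6 and 1.27 for Cxcl10. The macrophage growth factor Csf1, which also held the element, was level with its first culture at 15300, 682 and 15900. The element was also held by the chemokine genes Cxcl3 (-0.41) and Ccl9 (0.04) and by Ptx3 (-0.5) and C1qc (1.75). The spots of Cxcl1 and C1qc lay in clusters. Binding to the element was not tested.

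Immediate-early genes, the first response to serum and stress, had 0 of 24 members higher and 4 lower. Egr2 gave 229, 950 and 77.3 (-1.57), Egr1 845, 1730 and 305 (-1.47), Fos 185, 2680 and 76.5 (-1.27, in a cluster) and Nr4a1 642, 1910 and 310 (-1.05). All 4 were highest in suspension. Of 26 NRF2 antioxidant genes 0 were higher and 4 lower, 3 of them glutathione transferases of the alpha class: Gsta2 at 29.8, 3.08 and 7.34 (-2.02), Gsta3 at 664, 950 and 249 (-1.42) and Gsta4 at 61.6, 12.6 and 28.7 (-1.1).

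Macrophage genes were the clearest group above their first level. Of 20 pan-macrophage and myeloid genes 9 were over 2-fold higher and 0 lower, against 3.35% and 2.56% of all genes. The median of the list was 0.90. The 3 genes of complement C1q, which tissue macrophages make, gave 1280, 12900 and 4810 for C1qa (1.91), 1080, 11700 and 3830 for C1qb (1.83) and 1870, 18400 and 6260 for C1qc (1.75, in a cluster). Csf1r, the receptor for the macrophage growth factor, gave 4160, 25400 and 10800 (1.37). Aif1, an actin binder of macrophages (442, 3890 and 1560, 1.81), Cd14, the lipopolysaccharide co-receptor (253, 1340 and 661, 1.38), and Spi1, the myeloid master factor (11.2, 96.6 and 28.1, 1.33), were also higher. All of these peaked in suspension and came down only in part. The signals of the list added up to 51500, 238000 and 80300. Adgre1, which encodes F4/80, was at 626, 5590 and 1180, while Itgam, which encodes CD11b, was level at 3900, 2180 and 3500. In bulk RNA, more cells of a type and more RNA per cell cannot be told apart, here or in the lists that follow.

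Genes of resident macrophages held the largest single differences. Of 19 measured, 6 were over 2-fold higher and 0 lower, with a median of 0.30. The list was split, with 12 members above 0 and 7 below, the lowest at -0.88. A median of this size has no settled direction under scaling. Cx3cr1, the fractalkine receptor, gave 63.9, 407 and 1570, a difference of 4.62 or 24.5-fold, with 4.86 by its other probe, and was the largest of the 13686. Unlike the C1q genes it was higher after re-plating than in suspension. Fcrls, an Fc receptor-like gene of microglia and resident macrophages, gave 57.4, 2320 and 827 (3.85), P2ry12, a purinergic receptor of the same cells, 5.84, 160 and 35.4 (2.60), and Cd5l, a scavenger protein, 30.3, 2780 and 120 (1.98). Folr2 (379, 4690 and 1200, 1.67) and Trem2 (2390, 19400 and 5990, 1.32) completed the 6. Mrc1, the mannose receptor, was within 2-fold at 491, 5880 and 605.

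Of 11 markers of recruited monocytes and macrophages measured, 1 was higher and 2 lower, with a median of -0.04. Arg1, the arginase of repair macrophages, was at 411, 1390 and 68.1 (-2.59), S100a8, a neutrophil and monocyte protein, at 52.4, 142 and 24.9 (-1.07), and Clec4e, a receptor induced by inflammation, at 35.7, 365 and 92.5 (1.37). Several of the most positive differences outside the lists were leukocyte genes as well: Gpr84, a receptor for medium-chain fatty acids on macrophages (25.9, 265 and 230, 3.15), Spn, which encodes CD43 (17.9, 136 and 119, 2.73), Cd72 (225, 1330 and 1420, 2.66, with 2.64 by its other probe) and, chosen after its value was seen, Slamf9 (177, 290 and 1030, 2.54). Hpgd, which breaks down prostaglandins, was at 12.3, 174 and 103 (3.08 and 3.00 by its probes). Itgb7, a lymphocyte integrin chain, ran the other way at 51, 53 and 8.18 (-2.64). T, B and NK lymphocyte genes were mostly unread, with 4 of 16 above background on both arrays and 0 of these over 2-fold different. MHC class II genes split, with Cd74, the invariant chain, lower (46.4, 98.0 and 17.3, -1.42) and H2-DMb1 (100, 631 and 257, 1.36), H2-DMa (32.9, 165 and 70.6, 1.1) and the costimulator Cd86 (8.64, 53.6 and 25.8, 1.58) higher.

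Lysosome and autophagy genes, which are abundant in macrophages but active in all cells, had 23 of 26 members above 0 with a median of 0.43. Of these only Map1lc3b, the autophagosome protein LC3B, was over 2-fold higher, at 1210, 3830 and 2430 (1.01). A list median of this size has no settled direction under scaling, and the part of the macrophage genes in it was not tested.

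Several endothelial genes were below their first level. Of 15 measured on both arrays, 1 was over 2-fold higher and 6 lower, with a median of -0.59. Cdh5, the endothelial cadherin, gave 44.5, 342 and 4.92 (-3.18), but its spot lay in a dark cluster. Mmrn2, an endothelial matrix protein outside clusters, gave 108, 438 and 12.9 (-3.07 or 8.38-fold). Esam, a junction protein (33.9, 160 and 8.06, -2.07), Tek, the Tie2 receptor (21.2, 19.4 and 5.61, -1.92), and Egfl7, a secreted endothelial protein (692, 1530 and 226, -1.62), were lower as well. Pecam1 was at 19.6, 45.4 and 11.9 (-0.72), Vwf at 65.0, 366 and 61.4, and Kdr, the VEGF receptor, at 1450, 1140 and 1910, with probes that disagreed in sign (0.39 and -1.23). The exception above 2-fold, the phosphatase gene Ptprb (1120, 159 and 2560, 1.19), was lowest in suspension, as was Kdr. A further 7 members were read on the adherent array only, against 1, Flt4, on the re-adherent array only. Over all genes these counts were 788 and 251, and the weakest signal that passed was 2.57 on the adherent and 3.39 on the re-adherent array. The 7 members included the guidance receptor Robo4, at least 16.0-fold lower (59.8 in the first culture and 284 in suspension). Endomucin, Emcn, was at least 9.94-fold lower (33.7 and 46.2), and the tight junction gene Cldn5 at least 4.14-fold lower (14 and 191). Others had small bounds, such as Tie1, at least 1.71-fold lower. Without clustered spots the median of the 13 remaining endothelial genes was -0.20, so the list's median rests on few members and, at that size, has no settled direction under scaling. The signals of the 15 genes added up to 5640, 9050 and 7030, above the first culture, with Ptprb and Kdr higher. The separate genes named as over 2-fold different differ by more than the technical error.

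Mural cells, which wrap vessels, had 0 of 11 genes higher and 4 lower, with a median of -0.79. Ndufa4l2, a hypoxia-linked mitochondrial protein abundant in pericytes, gave 133, 149 and 15.8 (-3.07). Cspg4, the NG2 proteoglycan (108, 26.1 and 40.2, -1.43), and Rgs4, a G-protein regulator (15.7, 1.34 and 6.26, -1.32), were lower along with Myh11. Rgs5, the usual pericyte marker, was at 3.78 on the adherent array, near the detection limit, and was not read after re-plating. Pdgfrb, which pericytes share with fibroblasts, was within 2-fold at 1490, 1100 and 1200.

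Cartilage and bone genes had 0 of 12 higher and 5 lower, led by Ptn. Alpl, tissue alkaline phosphatase, was at 41.7, 115 and 9.58 (-2.12), Runx2, the bone master factor, at 19.3, 4.49 and 7.49 (-1.37), and Mgp, an inhibitor of calcification, at 7300, 34900 and 3490 (-1.06). Of 8 cardiomyocyte genes read on both arrays 2 were higher, Tnnt2, the cardiac troponin T, at 91.1, 137 and 304 (1.74) and the dim Myl2 at 3.34, 7.26 and 8.15 (1.29). The others lay between -0.97 for Nppb, a natriuretic peptide, and 0.80 for Myl4.

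**Figure D4:**
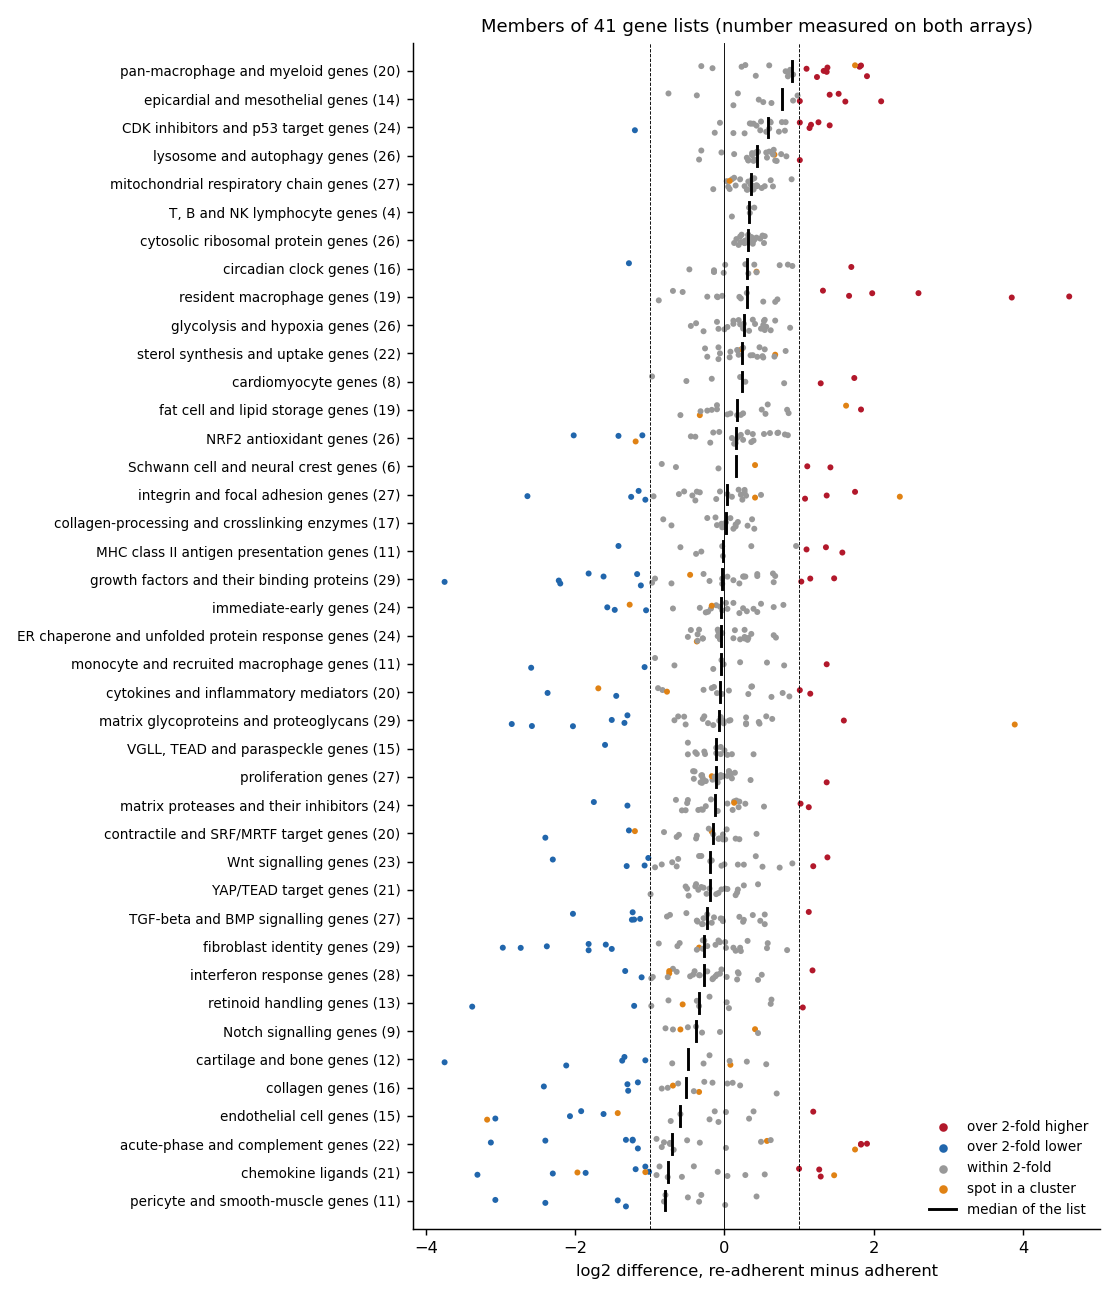
Log2 difference, re-adherent minus adherent, of every member of 41 gene lists that was well above background on both arrays (number in brackets); black bars are list medians, dashed lines mark 2-fold and orange points lie in spot clusters. Pan-macrophage genes have the highest median, 0.90, and pericyte and smooth-muscle genes the lowest, -0.79.

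Genes of the epicardium and of mesothelium, the epithelium that covers the heart, were higher. Of 14 measured, 5 were over 2-fold higher and 0 lower, with a median of 0.77, after a median of -0.87 in suspension. Upk3b, a mesothelial uroplakin, was at 20, 18.9 and 85.8 (2.1) and another uroplakin, Upk1b, at 33.1, 18.3 and 95.6 (1.53). The keratins of simple epithelia were higher with them, Krt18 at 144, 49 and 442 (1.62), Krt8 at 23.1, 12.5 and 61.3 (1.41) and Krt19 at 149, 30.8 and 300 (1.01). Msln, mesothelin, lay just inside 2-fold at 69.7, 124 and 137, and the epicardial factors Wt1 (87.4, 52.1 and 95.2) and Tbx18 (394, 29.6 and 305) were within 2-fold. Of the genes named here, Upk3b, Upk1b and the keratins passed 2-fold, and Msln, Wt1 and Tbx18 did not.

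Genes known from stratified epithelium were also among the most positive differences. Sprr1a, a cornified envelope protein that injured heart and nerve also make, gave 81.1, 38.4 and 560 (2.79), and Crct1, a late cornified envelope gene, 57.0 and 425 (2.90) with no signal well above background in suspension. The protease inhibitor Cst6 (156, 68.4 and 780, 2.33), the desmosomal linker Ppl (9.30, 9.26 and 39.4, 2.08) and the plakophilin Pkp1 (18.8, 4.14 and 75.5, 2.01) were chosen after their values were seen. In all 5 the re-adherent signal was above both earlier states. None of these spots lay in a cluster. Foxa2, a factor of endoderm (3.93 and 28.0, 2.83), had the same pattern, was not well above background in suspension and rests on 1 probe.

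Regulators of cell division differed by small factors. Of 24 CDK inhibitors and p53 targets, 5 were over 2-fold higher and 1 lower, against 3.35% and 2.56% of all genes. Of the 24, 21 lay above 0 and the median was 0.58. Cdkn2a, whose products p16 and p19 hold the cell cycle, gave 256, 90.2 and 679 (1.41 and 1.49 by its probes). Cdkn1a, which encodes p21, was at 1720, 1570 and 3830 (1.16 and 1.24), and Gdf15, a stress cytokine, at 813, 1800 and 1950 (1.26). The p53 targets Pmaip1 (73.8, 109 and 162, 1.14) and Perp (25.4, 13 and 51, 1.01) were higher as well, and Cdkn1c, which encodes p57, was lower at 59.1, 61.2 and 25.7 (-1.20). Cdkn2b, the neighbour of Cdkn2a, was at 277, 291 and 471 (0.77). Under alternative processing, the lowest differences were 0.93 for Cdkn2a, 0.79 for Gdf15, 0.68 for Cdkn1a, 0.66 for Pmaip1 and 0.53 for Perp. Cdkn1c came as near to 0 as -0.92. None of these calls thus held at 2-fold under every alternative, while their signs did. Proliferation genes as a group did not differ by 2-fold, with 26 of 27 inside it and a median of -0.11. Mki67 was at 2870, 2880 and 2330 and Top2a at 645, 455 and 516. The member outside was Ccnd1, cyclin D1, which drives entry into the cycle and was higher at 1930, 2260 and 4980 (1.37).

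Integrin genes differed in both directions. Of 27 integrin and focal adhesion genes 4 were over 2-fold higher and 4 lower. The collagen receptor chains Itga11 (513, 105 and 216, -1.25) and Itga1 (79.8, 16.8 and 35.9, -1.15) and the nephronectin receptor chain Itga8 (64.2, 47.5 and 30.8, -1.06) were lower. The laminin receptor chain Itga6 (860, 4310 and 1820, 1.08), Itga4, which binds VCAM1 and fibronectin (159, 854 and 411, 1.37), and Itgbl1, a secreted integrin-like protein (99.0, 79.8 and 333, 1.75), were higher, with Itgb8 in a cluster. Among 16 clock genes Dbp, an output factor of the clock, was higher at 244, 1070 and 796 (1.70 and 1.73 by its probes) and Hlf, of the same family, lower at 14.9, 30.1 and 6.13 (-1.28), while the core factor Arntl was level at 150, 113 and 136. Hours of collection are not given in the labels.

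Basic programmes were level. Of the 41 lists 9 had no member over 2-fold different, among them the targets of YAP and TEAD, the crosslinking enzymes, 26 cytosolic ribosomal protein genes, 27 respiratory chain genes, 26 glycolysis and hypoxia genes, 24 chaperone and unfolded protein response genes and 22 sterol genes. Ribosomal genes were all above 0, with a median of 0.32, and respiratory chain genes had 26 of 27 above 0, with a median of 0.35, but these shifts are of the size that scaling moves. Relative to the median of all genes the ribosomal median was 0.24 with the 75th percentile and 0.02 after quantile normalization.

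Genes read on 1 array only were counted by a bound, for which the unread signal was set to the weakest that passed on that array, or to its own value where that was larger. On the adherent side 15 of 788 had a bound over 4-fold, 13 of them outside clusters. Slc38a4, an amino acid transporter, led with at least 17.7-fold (59.9 in the first culture and 2.93 in suspension), and the lubricin gene Prg4 was at least 15.7-fold lower on the re-adherent array (53.4 and 268). Gpc3, a glypican (at least 5.88-fold), Ahsg, the serum protein fetuin-A (5.56-fold), Igfbp3 (4.53-fold) and Thbs4, a thrombospondin (4.22-fold), belong to the same side, with Robo4, Emcn and Cfb. On the re-adherent side 80 of 251 passed 4-fold, but 59 of them lay in clusters. The 21 others were led by single dim probes, among them Zp1, an egg coat protein, at least 13-fold, and the pheromone receptor gene Vmn2r46, 14.3-fold.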

How the data were processed

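RNA of 3 states, 1 array each, was hybridised to 1-colour Agilent SurePrint G3 mouse arrays. The deposited scanner files hold spot intensity from Agilent Feature Extraction 10.10.1.1, background-subtracted and spatially detrended by the software per the file headers, and all 3 arrays lay on 1 slide and 1 scan. The authors' value table, also intensity, was the processed signal times 1 constant per array (1.52, 1.52 and 1.62), and its normalization is not given in the sources used here.

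Here the processed signal was divided by the array's 75th percentile (59305 spots, controls left out) and taken to log2, outlier spots (154 on the adherent, 175 on the re-adherent array) were left out, and spots of a probe were averaged. RefSeq accessions (GRCm38.p6) named 27229 of 55665 probes. The array was designed on an earlier assembly, so no probe coordinates are given. A gene was read by its brightest probe well above background on both arrays. The files used hold no mean spot signal, so the normexp alternative (limma 3.58.1, offset 50) used the median signal. Calls are differences over 2-fold, with no test. Error columns cover technical error only, and the number of arrays limits the precision.

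Named genes were the 20 largest differences in each direction outside large patches, up to 6 members per direction of each list and its defining members, up to 10 genes per side read on 1 array, and 8 marker genes. A few genes that the rule picks are not reported here. The members and lists were chosen with earlier results of these data known. Python 3.11.15 and pandas 2.3.3 were used. Scaling and the recovery of planted fold changes were tested on simulated data, but the cluster definition and the bounds were not.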

Additional observations from a re-analysis of the deposited data

Results flagged for a closer look

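Probes without a gene symbol take part in no comparison of the report. Of 10666 such probes well above background on both arrays, 11 were over 4-fold higher and 17 over 4-fold lower on the re-adherent array outside clusters. They are unnamed here, and were not followed further.

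Of 96 ERCC control probes, which read synthetic transcripts, 2 had every spot well above background on both arrays. The labels do not say that such transcripts were added.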

How the results depend on the processing

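No paired analysis was possible because there is 1 array a state, and no replicate could be left out for the same reason. Lower and higher genes at 2-fold numbered 350 and 459 as reported, 665 and 251 with no scaling, 1218 and 151 with E1A spike-in scaling, 178 and 257 with the normexp correction, and 225 lower genes with signals at least 4 times the lowest one well above background. At 4-fold, against 53 and 53, there were 84 lower genes with no scaling, 109 and 28 with E1A scaling, 20 and 15 with normexp, 25 and 28 with the stricter signal limit, 136 higher genes with low signals raised to the floor, and 33 higher genes without small clusters, an alternative chosen after seeing the data. The stricter limit and the removal of clusters test fewer genes, and the cause of the other shifts was not tested. The other counts were within 1.5 times under the alternatives run.

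Of 195 named genes, 192 had the same sign under all 13 alternatives. Acta2 ranged from -0.54 to 0.02, Tcf21 from -0.32 to 0.24 and Vgll3 from -0.52 to 0.04. Relative to all genes, the endothelial median of -0.67 was -0.42 with normexp, -0.20 with the stricter limit and -0.28 without clusters, and the Schwann cell median of 0.09 over 6 genes ranged from -0.27 to 1.02. The medians of MHC class II, fat cell and growth factor genes also crossed 0. Dim genes are the least certain, since 53.9% of the spots on the re-adherent array passed background.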

Other observations

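Genes of the imprinted Dlk1-Dio3 domain on chromosome 12, chosen after their values were seen, were lower together. The RefSeq table lists 103 genes from Dlk1 to Dio3, mostly small RNAs that these probes do not read, and 5 were well above background on both arrays. All 5 were over 2-fold lower on the re-adherent array. Since the domain was picked for these values, this count cannot be set against the 2.56% of all genes. Dlk1, a Notch-like growth inhibitor expressed from the paternal copy, gave 32.8 percent of the 75th percentile in the first culture, 4.45 in suspension and 6.5 after re-plating (-2.34). Dio3, the deiodinase that inactivates thyroid hormone, gave 68.0, 2.74 and 17.4 (-1.97), and its antisense neighbour Dio3os 26.1, 4.77 and 9.84 (-1.41). The noncoding RNAs of the maternal copy, Meg3 (2190, 815 and 720, -1.61, in a cluster) and Mirg, which carries many microRNAs (386, 64.5 and 133, -1.54), were lower too. Genes known to be expressed from different parental copies thus differed in the same direction, and all 5 were already low in suspension. The probes do not tell the parental copies apart.

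Several other noncoding transcripts, also chosen after their values were seen, were over 2-fold lower. The nuclear RNAs Neat1, the scaffold of paraspeckles, and Malat1 gave 1760, 3190 and 580 (-1.6) and 624, 1060 and 161 (-1.96), high in suspension and low after re-plating. Mir17hg, the host of the miR-17 cluster, gave 143, 61.2 and 35.9 (-2.0), Dnm3os, the host of miR-199a and miR-214, 59.5, 82.8 and 20.1 (-1.56), and Dancr 567, 154 and 206 (-1.46). The probes read the host transcripts and not the mature microRNAs.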
